A study of Homo sapiens with 16 samples.

Results

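MK25, an inhibitor of the kinase MK2, was compared with its vehicle DMSO in LN229 cells kept in regular culture. The comparison rests on 4 of the 16 RNA-seq libraries of the series, 2 treated with MK25 and 2 with DMSO, which were chosen by their labels and by no measured value, and it covers all 14024 genes listed for them. LN229 is an established human glioblastoma cell line. Both groups shared regular culture, that is DMEM with 10% fetal bovine serum, kept humid at 5% CO2 and 37 °C, so that, as far as the labels tell, the 2 groups differed only in MK25 or DMSO. The study asked how p38 and MK2 take part in the answer of such cells to ischemic culture, in which low nutrients were combined with hypoxia. Its inhibitor experiment of 12 libraries also holds 2 libraries each of regular culture with the p38 inhibitor VX745 and of ischemic culture with DMSO, VX745 or MK25, and a separate first experiment holds 4 untreated libraries, 2 from each culture. The sample labels give no dose and no time of treatment, and they do not say whether the 2 samples of a group came from separate cultures. All p-values therefore measure only the spread between samples of a group, which may be technical. For the inhibitor experiment that spread was pooled over all 12 libraries.

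MK2, encoded by MAPKAPK2, is a kinase that p38 activates, and it phosphorylates proteins that bind AU-rich elements in mRNAs, among them tristetraprolin (ZFP36), and the small heat shock protein HSPB1. Sterol synthesis is set by the SREBP factors, which SCAP carries to the Golgi for cleavage when membranes are short of cholesterol and which INSIG proteins hold back when cholesterol is plentiful. The cleaved factors raise the genes of sterol synthesis and uptake, while the oxysterol sensors of the LXR family raise the cholesterol exporters. Genes of glucose uptake, glycolysis and angiogenesis are raised in low oxygen by the HIF factors, which oxygen-dependent hydroxylases otherwise mark for destruction.

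The strongest changes lay in sterol and hypoxia genes, and 3 promoters of each group are shown because their members moved together. RefSeq (GRCh38.p14) gave a promoter for 11087 of the genes tested, and the 250 bases before the annotated start were searched on both strands. The letters CCAAT, the core bound by the SREBP partner NF-Y, stood in 15 of 18 such windows of the cholesterol list (83.3%) and in 35.1% of all 11087. They also stood in 16 of 28 windows of the list of ATF4 and CHOP targets (57.1%). Among the genes raised by MK25 they stood in 37.4% of the windows, and among those lowered in 36.4%. The letters ATCAC followed by any 1 base and CCAC, written after the sterol regulatory element, stood in 1 of the 18 windows, that of SREBF2, and in 8 of all windows (0.0722%). With the leading A left off they stood in 1 of the 18, in 2 of 28 windows of the hypoxia list (7.14%) and in 88 of all windows (0.794%). The next 3 windows are those of INSIG1 (chr7:155297628-155297877, plus strand), MSMO1 (chr4:165327419-165327668, plus strand) and SREBF2 (chr22:41832855-41833104, plus strand). Capitals mark CCAAT on either strand and, in SREBF2, also the 10 letters that begin 134 bases before the start.
INSIG1: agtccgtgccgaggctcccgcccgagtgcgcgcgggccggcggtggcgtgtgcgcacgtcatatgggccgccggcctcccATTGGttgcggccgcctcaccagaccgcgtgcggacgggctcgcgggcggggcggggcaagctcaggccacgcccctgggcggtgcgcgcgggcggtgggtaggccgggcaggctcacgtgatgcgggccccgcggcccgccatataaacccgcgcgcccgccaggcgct
MSMO1: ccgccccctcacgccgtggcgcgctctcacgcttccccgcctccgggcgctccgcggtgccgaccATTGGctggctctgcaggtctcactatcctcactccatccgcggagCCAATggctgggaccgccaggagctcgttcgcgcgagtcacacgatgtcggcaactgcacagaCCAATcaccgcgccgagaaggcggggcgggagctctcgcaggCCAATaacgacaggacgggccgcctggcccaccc
SREBF2: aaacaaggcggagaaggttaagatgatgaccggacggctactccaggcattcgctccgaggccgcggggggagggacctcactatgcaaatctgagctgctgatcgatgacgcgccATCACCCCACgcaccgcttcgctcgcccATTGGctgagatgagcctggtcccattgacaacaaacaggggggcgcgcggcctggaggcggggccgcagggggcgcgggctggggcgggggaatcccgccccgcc

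The letters ACGTG, the core of the element bound by HIF, stood in 13 of 28 windows of the hypoxia list (46.4%), in 66 of 198 windows of the genes raised by MK25 (33.3%), in 11 of 66 windows of the genes lowered (16.7%) and in 23.3% of all 11087. They overlap with the E-box CACGTG, which contains them on both strands, so that each window with the E-box is counted above too. The E-box stood in 34 of the 198 raised windows (17.2%), 5 of the 28 hypoxia windows (17.9%), 6 of the 66 lowered windows (9.09%) and 8.77% of all windows. The windows shown are those of CA9 (chr9:35673678-35673927, plus strand), ANKRD37 (chr4:185396591-185396840, plus strand) and BNIP3 (chr10:131981924-131982173, minus strand), with ACGTG on either strand in capitals. A match is a description of the letters and not of a bound site.
CA9: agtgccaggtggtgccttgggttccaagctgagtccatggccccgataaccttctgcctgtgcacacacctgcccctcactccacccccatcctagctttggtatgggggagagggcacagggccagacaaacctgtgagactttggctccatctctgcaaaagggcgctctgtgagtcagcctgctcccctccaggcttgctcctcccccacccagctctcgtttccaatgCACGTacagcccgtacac
ANKRD37: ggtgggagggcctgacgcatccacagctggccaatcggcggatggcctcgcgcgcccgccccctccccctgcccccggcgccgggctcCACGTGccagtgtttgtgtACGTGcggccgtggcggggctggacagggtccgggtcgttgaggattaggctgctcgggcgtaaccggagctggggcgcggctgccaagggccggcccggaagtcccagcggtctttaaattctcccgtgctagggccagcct
BNIP3: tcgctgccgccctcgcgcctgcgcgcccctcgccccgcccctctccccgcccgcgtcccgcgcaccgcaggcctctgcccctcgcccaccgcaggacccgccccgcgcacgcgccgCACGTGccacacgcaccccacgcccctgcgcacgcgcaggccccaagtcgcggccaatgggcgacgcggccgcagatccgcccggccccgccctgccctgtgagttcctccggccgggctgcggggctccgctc

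MK25 raised 264 of the 14024 genes (1.88%) and lowered 85 (0.606%), where a call needed a limma p, adjusted over all genes, below 0.05 together with a change of 1.5-fold or more. Without the fold requirement 981 genes were higher (7.0%) and 731 lower (5.21%), while the median over all genes was 0.00 on the log2 scale. Values are log2 normalized CPM (reads of a gene scaled by library size) throughout, and differences are log2 differences, so that a difference of 1 is a 2-fold change. These levels are relative to the other genes of a library and also carry the scaling between libraries of the deposited values. With them a smaller number of cells and less RNA per cell cannot be told apart. MK25 and DMSO did not overlap in any of the 349 called genes (2.49%), beside 51.4% of all genes whose 2 MK25 libraries both lay above or both below the 2 DMSO libraries. The calls rest on a spread pooled over all 12 libraries of the inhibitor experiment. With only the libraries of the 2 groups in the fit, 179 genes were raised and 66 lowered, 176 and 63 of them among those called. The DMSO libraries bore on the number of genes lowered: it was 174 without DMSO replicate 1 and 54 without DMSO replicate 2, and 66 and 43 of these were among the 85. Genes raised numbered 372 and 214 in the same fits, 223 and 176 of them among the 264.

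**Figure D1:**
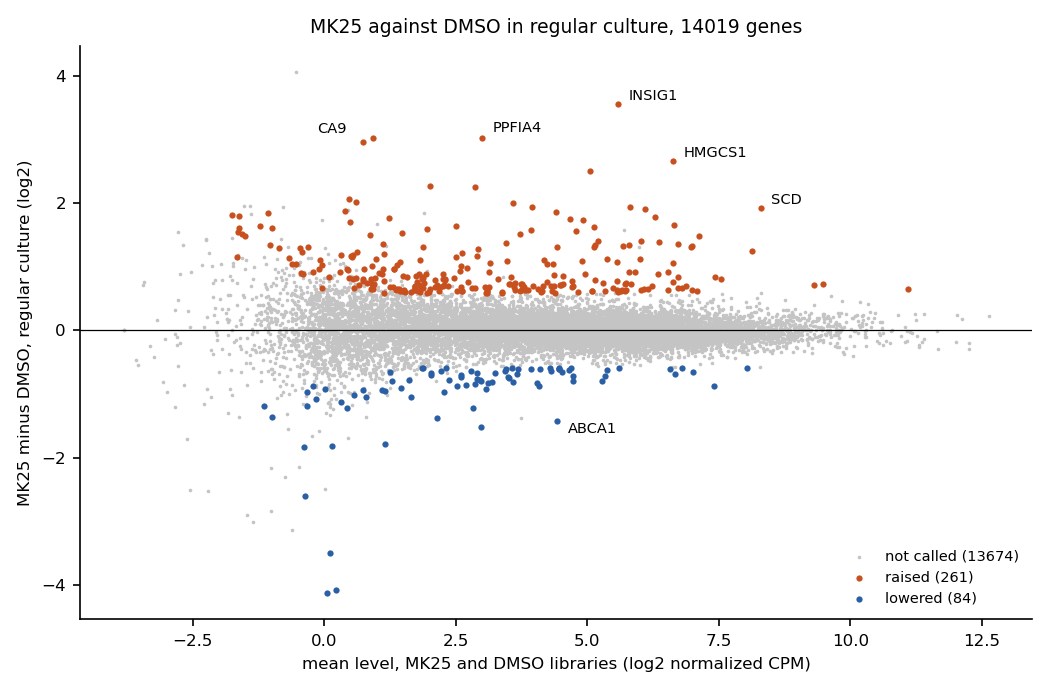
Each point is 1 of 14019 genes, with its mean level in the MK25 and DMSO libraries of regular culture on the x axis (log2 normalized CPM) and the MK25 minus DMSO difference on the y axis (log2). Orange points are 261 genes raised and blue points 84 lowered, and 5 genes that are not reported here are left out. Most called genes have small differences and low to middle levels, and INSIG1 has the largest called rise (3.56).

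The 4 libraries held between 20122017 and 30228774 reads on the listed genes. The markers of the line EGFR, NES, VIM, CD44 and SOX2 lay between 5.59 and 11.34 in every library, SOX9 lay between -1.25 and 0.10, NES was lower with MK25 by 0.25 (adjusted p = 0.0134), short of the fold threshold, and CDKN2A, which LN229 is known to have lost, was not among the genes listed. Of 25 markers of astrocytes, oligodendrocytes, neurons, immune, endothelial and epithelial cells, 7 were listed, among them CD68 (4.92 to 5.18) and OLIG2 (2.62 to 3.09), and none passed the test. MAPKAPK2 itself stood at 7.31 and 7.29 with DMSO and at 7.35 and 7.32 with MK25, a difference of 0.03 (SE 0.06, adjusted p = 0.758). MAPK14, which encodes p38 alpha, differed by -0.03 (SE 0.06, adjusted p = 0.811). An inhibitor acts on the kinase and not on its mRNA, so these levels do not check the treatment.

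The 12 largest rises among called genes with a mean level of at least 3 fell mostly into sterol, fatty acid and hypoxia genes. INSIG1 stood at 3.93 and 3.68 with DMSO and at 7.35 and 7.38 with MK25, an 11.8-fold rise (log2 3.56, SE 0.07, adjusted p = 1.91e-15). PPFIA4, a liprin of the synaptic scaffold, went from 1.40 and 1.58 to 4.52 and 4.51, a rise of 3.03 (SE 0.08, adjusted p = 6.04e-14). In both genes the replicates lay close together and the groups far apart. HMGCS1 rose by 2.66, MSMO1 by 2.50, SQLE by 1.94, SLC2A3 by 1.93, SCD by 1.93, BNIP3 by 1.90, PDK1 by 1.86 and FADS2 by 1.79, with standard errors of 0.06 to 0.10.

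RN7SK, the 7SK small nuclear RNA and also among the 12, stood at 2.55 and 2.61 with DMSO and at 3.19 and 5.97 with MK25 (4.01-fold, SE of the log2 difference 0.62, adjusted p = 0.0429). MK25 replicate 2 decided that rise: without it the difference was 0.61 with an adjusted p of 0.473. Other short noncoding RNAs, named here after their values were seen, were also highest in that library. RPPH1 stood at 4.59 in it and at 0.73 to 1.68 in the other MK25 library and both DMSO libraries, and its difference passed the test (2.27, adjusted p = 0.0259), and RMRP stood at 4.33 against 0.76 to 1.32. RN7SL1 stood at 7.74 in it and at 4.24 to 5.59 in the same 3 libraries. What sets that library apart in these RNAs was not tested.

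Among the 12 largest falls by the same rule, the 11 described here were smaller than the rises. ABCA1, the main exporter of cholesterol, stood at 5.02 and 5.24 with DMSO and at 3.60 and 3.82 with MK25, a fall of 1.42 (SE 0.08, adjusted p = 2.19e-09). TMEM171 fell by 0.92, TRAPPC12 by 0.87, the histone gene H2AX by 0.87, MYLIP by 0.83, ZNF503 by 0.81, the secreted TAFA2 by 0.80, FAM222A by 0.80, the scavenger receptor SCARF2 by 0.80 and ZNF579 by 0.75. NME2 fell by 0.82 (SE 0.26, adjusted p = 0.0442) and lost its call in 6 of the alternative fits, and it shares reads with the overlapping NME1-NME2 transcripts.

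Cholesterol synthesis and uptake was the list that moved most. Of its 24 genes 23 were listed, and 21 of the 23 were raised, none lowered, beside 1.88% and 0.606% of all genes. The median difference was 1.35 beside 0.00 over all genes. With VX745 the median was -0.02 and none of the 23 was called.

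In the mevalonate arm, which builds the isoprenoid precursors, 6 of 7 enzymes were raised. HMGCS1, which makes HMG-CoA, stood at 5.29 and 5.29 with DMSO and at 7.88 and 8.03 with MK25 (difference 2.66, SE 0.07, adjusted p = 2.74e-14). The kinase MVK rose by 1.56, the decarboxylase MVD by 1.09, the isomerase IDI1 by 1.73 and the farnesyl diphosphate synthase FDPS by 0.80. PMVK, the second kinase of the arm, differed by 0.33 (SE 0.08, adjusted p = 0.00739), short of the fold threshold.

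From squalene to cholesterol 11 of 12 enzymes were raised. FDFT1, the squalene synthase, rose by 1.48 and SQLE, the squalene epoxidase, by 1.94. MSMO1, a sterol demethylase, stood at 3.91 and 3.70 with DMSO and at 6.27 and 6.34 with MK25, and NSDHL, which acts beside it, rose by 1.31. CYP51A1 rose by 1.36, DHCR7 by 1.66, SC5D by 0.75, LSS by 0.73 and EBP by 0.65. HSD17B7 rose by 1.51, and its pseudogene copy HSD17B7P2, with which reads can be shared, rose by 2.06. TM7SF2, a reductase whose step another enzyme can also carry out, stood at 2.44 and 2.78 with DMSO and at 2.72 and 2.68 with MK25 (difference 0.09, SE 0.13, adjusted p = 0.698), so that its groups overlapped.

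All 4 listed genes of regulation, uptake and transport were raised. SREBF2, which encodes SREBP2, stood at 6.28 and 6.35 with DMSO and at 7.61 and 7.65 with MK25 (difference 1.31, SE 0.06, adjusted p = 1.65e-11). STARD4, a sterol transporter, went from 4.41 and 4.54 to 5.81 and 5.83. INSIG2, in no list and named after its values were seen, stood at 4.23 and 4.00 with DMSO and at 4.83 and 4.82 with MK25, a rise of 0.71 (SE 0.09, adjusted p = 2.78e-05). The retention partner INSIG1 thus rose by more on the log2 scale than INSIG2 did, although no test of one gene against another was run.

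**Figure D2:**
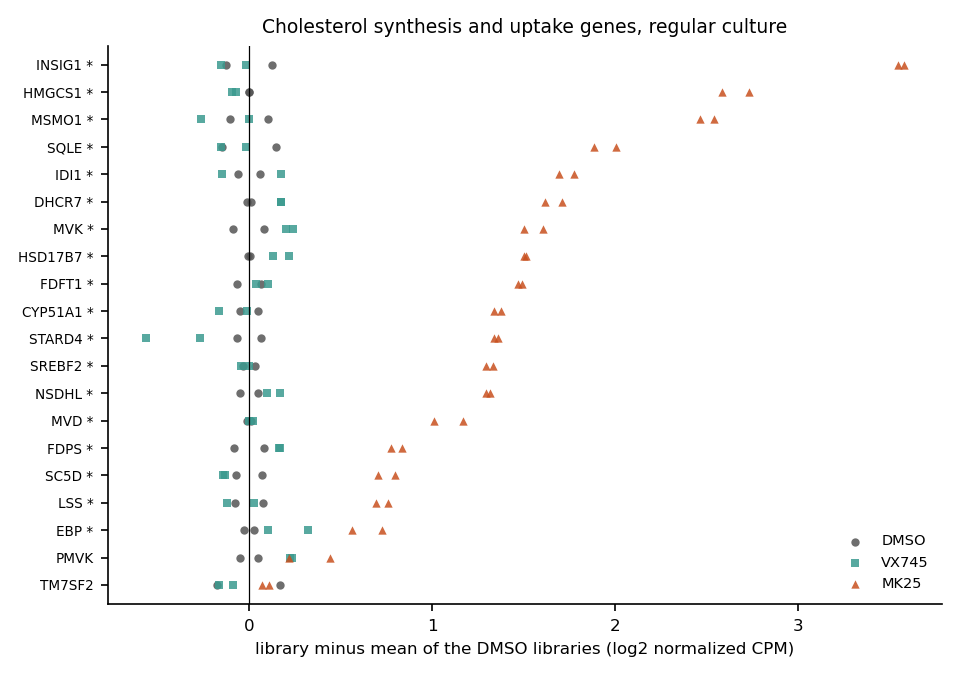
Each row is 1 of 20 genes of cholesterol synthesis and uptake, and each point 1 library of regular culture, placed by its level minus the mean of the DMSO libraries (log2 normalized CPM). Asterisks mark the 18 of them raised by MK25. DMSO and VX745 points lie near zero, and in 19 of 20 rows both MK25 points lie to the right of both DMSO points.

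Fatty acid genes were raised in part. Of the 12 listed, 5 were raised and none lowered, beside 1.88% and 0.606% of all genes, and the median difference was 0.45. SCD, the stearoyl-CoA desaturase, stood at 7.31 and 7.36 with DMSO and at 9.13 and 9.39 with MK25 (difference 1.93, SE 0.08, adjusted p = 8.77e-12). FADS2 and FADS1, desaturases of polyunsaturated fatty acids, rose by 1.79 and 0.85, the phosphatidate phosphatase LPIN1 by 1.12 and the acetyl-CoA synthetase ACSS2 by 0.74. FASN, the fatty acid synthase, differed by 0.44 (SE 0.09, adjusted p = 0.00228), ELOVL6 by 0.45 (adjusted p = 0.000152) and ACLY by 0.36 (adjusted p = 0.000562), all short of the fold threshold. SREBF1, which encodes SREBP1, stood at 5.67 and 5.87 with DMSO and at 5.91 and 6.02 with MK25, a difference of 0.19 (SE 0.07, adjusted p = 0.0724).

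Of 8 LXR targets 3 were lowered and none raised, beside 0.606% and 1.88% of all genes. ABCG1, a sterol exporter, stood at 2.85 and 2.80 with DMSO and at 1.24 and 1.67 with MK25, a fall of 1.37 (SE 0.13, adjusted p = 8.76e-07). MYLIP, a ubiquitin ligase, went from 3.45 and 3.58 to 2.58 and 2.80, a fall of 0.83 (SE 0.14, adjusted p = 0.000571). Together with ABCA1 these were both exporters and the ligase of the list. The other members differed by -0.01 to 0.23, among them the receptor genes NR1H3 (0.23, adjusted p = 0.374) and NR1H2 (0.07, adjusted p = 0.506), and the median of the list was 0.01.

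Hypoxia and glycolysis genes formed the other large block. Of the 33 listed, 19 were raised and none lowered, beside 1.88% and 0.606% of all genes. Without the fold requirement 30 of 33 were higher, beside 7.0% of all genes. The median difference was 0.71, and both MK25 libraries lay beyond both DMSO libraries in all 33, beside 51.4% of all genes. With VX745 none of the 33 was called and the median was 0.03.

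In transport and glycolysis several steps have a pair of isoforms in the list. SLC2A3, the glucose transporter GLUT3, stood at 3.08 and 2.87 with DMSO and at 4.91 and 4.92 with MK25 (difference 1.93, SE 0.07, adjusted p = 2.55e-12), while SLC2A1, GLUT1, differed by 0.36 (SE 0.05, adjusted p = 0.000263). Hexokinase HK2 rose by 1.33 and HK1 differed by 0.47. ALDOC rose by 2.25 and ALDOA differed by 0.42, ENO2 rose by 1.34 and ENO1 differed by 0.26, and PFKFB4 rose by 1.06 and PFKFB3 differed by 0.12. In each of these pairs the difference was larger for the first gene, with no test of one gene against another. PGK1 rose by 0.71, LDHA, the lactate dehydrogenase subunit, by 0.65, and the lactate exporter SLC16A3 by 1.41. In all 6 of 14 glycolytic enzymes were raised, and GAPDH (0.23, adjusted p = 0.0454) and PKM (0.18, adjusted p = 0.0877) were near the low end.

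At the mitochondria, PDK1, the kinase that closes pyruvate dehydrogenase, stood at 3.62 and 3.34 with DMSO and at 5.33 and 5.34 with MK25 (difference 1.86, SE 0.08, adjusted p = 2.83e-11). BNIP3, a mitophagy receptor, went from 5.24 and 5.04 to 7.09 and 6.99, and BNIP3L, its relative, from a mean of 4.30 to 5.95 and 5.91. All 3 genes of this group were raised. CA9, a carbonic anhydrase widely used as a hypoxia marker, was low: it stood at -1.77 and 0.27 with DMSO and at 2.14 and 2.30 with MK25 (difference 2.97, SE 0.38, adjusted p = 4.9e-05), with 7 reads in DMSO replicate 1. ANKRD37 rose by 2.02, the stress gene NDRG1 by 1.32, MXI1, a MYC antagonist, by 0.70, and HILPDA differed by 0.54.

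Among secreted factors VEGFA, the main angiogenic factor, stood at 5.42 and 5.47 with DMSO and at 6.34 and 6.39 with MK25, a rise of 0.92 (SE 0.05, adjusted p = 1.68e-09). ANGPTL4 rose by 0.96 and ADM differed by 0.54. Of the oxygen-dependent hydroxylases and demethylases, KDM3A rose by 0.92 and P4HA1 by 0.89. EGLN1, which marks HIF subunits for destruction, differed by 0.56 (adjusted p = 1.05e-05) and EGLN3 by 0.33 (adjusted p = 0.421). Of the factors themselves, named after their values were seen, HIF1A stood at 9.05 and 8.94 with DMSO and at 8.99 and 9.16 with MK25 (difference 0.08, SE 0.06, adjusted p = 0.418), while EPAS1, which encodes HIF-2 alpha, rose from 2.63 and 2.72 to 3.53 and 3.66 (difference 0.92, SE 0.09, adjusted p = 1.84e-06). HIF proteins are set largely by their stability, which mRNA levels do not measure.

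**Figure D3:**
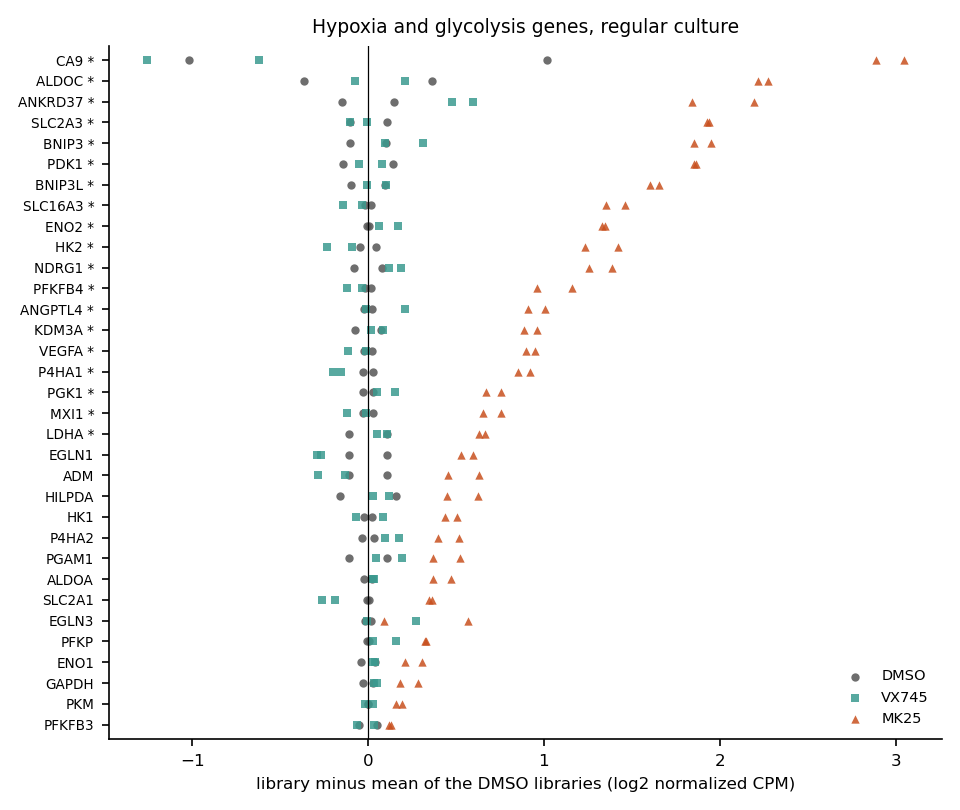
Each row is 1 of 33 hypoxia and glycolysis genes, and each point 1 library of regular culture, placed by its level minus the mean of the DMSO libraries (log2 normalized CPM). Asterisks mark the 19 genes raised by MK25. The MK25 points lie to the right of the DMSO points in every row, with a mean difference of 0.12 in PFKFB3 and 2.97 in CA9, and the DMSO points of CA9 are the widest apart.

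ATF4 and CHOP targets, the genes of the integrated stress response, moved less. Of 34 listed, 9 were raised and none lowered at the fold threshold, beside 1.88% and 0.606% of all genes. At any fold change 24 were higher and 1 lower, beside 7.0% and 5.21% of all genes. The median difference was 0.38. DDIT4, an inhibitor of mTORC1 that hypoxia also raises, stood at 7.48 and 7.54 with DMSO and at 8.78 and 8.74 with MK25 (difference 1.25, SE 0.05, adjusted p = 2.5e-11). VLDLR, a lipoprotein receptor, rose by 1.31, JDP2 by 1.07, ALDH1L2 by 0.75, CHAC1 by 0.73, STC2 by 0.70, GDF15 by 0.69, CTH by 0.66 and NUPR1, which had 3 reads in DMSO replicate 1, by 1.65. ATF4 itself differed by 0.47 (adjusted p = 6.02e-05), DDIT3, which encodes CHOP, by 0.57 (adjusted p = 0.000101), TRIB3 by 0.51 and ASNS by 0.45. The cystine transporter SLC7A11 was lower by 0.35 (adjusted p = 0.0197), the 1 member that passed the test downwards, while 30 of 34 had a positive difference.

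The lists closer to MK2 itself are short, and over all genes 1.88% were raised and 0.606% lowered. Of 17 kinases of the p38 and MK2 cascade 1 was raised, MAP2K6, a kinase that activates p38, which stood at 3.67 and 3.57 with DMSO, at 4.21 and 4.44 with MK25 and at 4.52 and 4.56 with VX745. Of 13 MK2 substrates and of 12 factors that bind or decay AU-rich mRNAs, 1 gene was lowered, ZFP36, which belongs to both lists: it stood at 2.86 and 3.03 with DMSO and at 2.27 and 2.21 with MK25, a fall of 0.71 (SE 0.11, adjusted p = 0.000461). ZFP36L2 was lower by 0.44 (adjusted p = 0.000335) and ZFP36L1 by 0.17 (adjusted p = 0.112). HSPB1 differed by -0.18 (SE 0.09, adjusted p = 0.204). The differences ran from -2.50 to 0.15 over the substrates, of which 3 were positive, and reached down to -2.50 over the AU-rich factors too, of which 0 were positive and 4 were lower without the fold requirement. The lowest value in both lists is that of PARN, a deadenylase. PARN stood at 0.62 and 1.89 with DMSO and at -3.08 and 0.60 with MK25 (adjusted p = 0.228). Its -3.08 lies below the level of 3 reads in MK25 replicate 1 (-2.23), so that end of both ranges rests on 1 value near the floor.

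Inflammatory genes whose mRNAs carry AU-rich elements went both ways. Of 22 genes 18 were listed, and TNF was not among those listed. Of the 18, 4 were raised and 2 lowered, beside 1.88% and 0.606% of all genes. CXCL8, the neutrophil chemokine interleukin 8, stood at 6.23 and 6.21 with DMSO and at 7.004 and 6.692 with MK25 (difference 0.63, SE 0.08, adjusted p = 6.84e-05). BIRC3 rose by 0.68 and TNFAIP3, a feedback inhibitor of NF-kB, by 0.62, beside VEGFA. IL1B fell by 0.64, from 3.09 and 3.14 to 2.41 and 2.54, and IL1A by 0.73, from 2.82 and 3.10 to 2.41 and 2.06. IL6 stood at 1.12 and 0.12 with DMSO and at 1.11 and 0.37 with MK25, so that no difference was detectable at this depth (0.13, SE 0.32, adjusted p = 0.837), and LIF differed by 0.02 (adjusted p = 0.881).

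Among 25 immediate early genes JUN was lowered and none was raised: it stood at 7.01 and 6.99 with DMSO and at 6.39 and 6.25 with MK25, a fall of 0.68 (SE 0.09, adjusted p = 4.02e-05). EGR1 was lower by 0.39 (adjusted p = 0.0268) and JUNB by 0.42 (adjusted p = 0.0338), short of the fold threshold. At any fold change 4 of the 25 were lower and 2 higher, beside 5.21% and 7.0% of all genes. The median of the list was -0.055, and 11 of its 25 differences were positive. At the fold threshold 1.88% of all genes were raised and 0.606% lowered. SPRY1, a feedback inhibitor of receptor tyrosine kinases, was the 1 of 17 ERK output genes raised, from 1.28 and 1.15 to 2.46 and 2.58 (difference 1.30, SE 0.10, adjusted p = 1.03e-07). It stood apart from its list, in which 4 of 17 differences were positive and the median was -0.052. At any fold change 4 of the 17 were lower and 1 higher.

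Of 15 circadian clock genes 3 were raised, beside 1.88% of all genes. They were the repressors BHLHE40 (1.40, SE 0.06, adjusted p = 2.33e-11), CIART (1.09) and BHLHE41 (0.71). The core genes CLOCK, BMAL1, PER2 and CRY1 differed by -0.23 to 0.12 and did not pass the test. Of 12 FOXO targets 2 were raised, beside the same 1.88%, the cyclin CCNG2 by 1.57 and PIK3IP1 by 0.82. The adaptor IRS2 was lower by 0.52 (adjusted p = 0.00149). Lysosomal genes included 2 raised of 28, beside 1.88% of all genes. These were GPNMB, which went from 2.26 and 2.31 to 3.59 and 3.56, and the autophagy receptor SQSTM1, which rose by 0.73. The aldo-keto reductases AKR1C1 and AKR1C3, close paralogs that may share reads, were the 2 raised of 25 NRF2 targets, by 0.84 and 0.64. Without the fold requirement 5 of the 25 were higher and 5 lower, beside 7.0% and 5.21% of all genes. The median of the list was 0.051, and GCLM was lower by 0.52 (adjusted p = 0.000364).

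A single member was raised in each of 3 further lists, NOTUM among 9 Wnt targets, MT1E among 5 metallothionein and zinc genes and GDF15 among 20 p53 targets. Over all genes 1.88% were raised and 0.606% lowered. BIRC3 and TNFAIP3 were the 2 raised of 16 NF-kB genes. HES4 was lowered among Notch targets, and in the list of matrix proteases MMP1 was raised by 0.66 and ADAMTS15 lowered by 0.71. In 18 of the 40 lists no member was called, beside 2.49% of all genes called, and the medians of these lists lay between -0.15 and 0.17. These include DNA replication, mitosis, YAP and TEAD targets, ER chaperones, interferon-stimulated genes and oxidative phosphorylation. Without the fold requirement, which 7.0% of all genes passed upwards and 5.21% downwards, 6 of 39 DNA replication genes were lower and none higher, CCNE2 being lower by 0.56. By the same rule 5 of 33 mitosis genes were lower and 1 higher, and 6 of 20 YAP and TEAD targets were lower and none higher. Of 23 ER chaperone genes 5 were higher and 1 lower, of 19 interferon-stimulated genes 2 were higher, and of 42 oxidative phosphorylation genes 7 were higher and 1 lower. Of the 264 genes raised 193 belonged to no list, and of the 85 lowered 75 belonged to none.

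**Figure D4:**
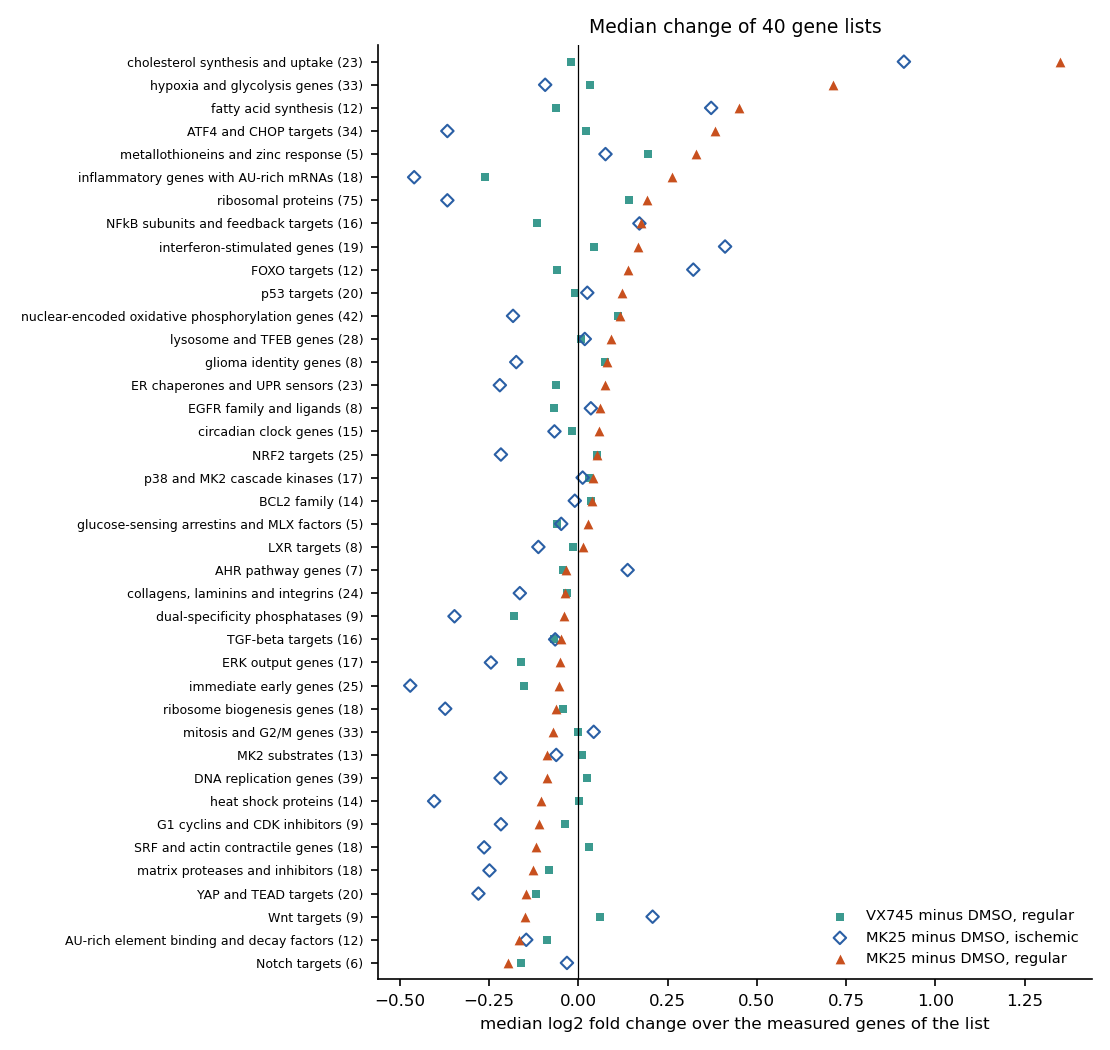
Each row is 1 of 40 gene lists with the number of its genes listed, and each symbol the median log2 difference from DMSO over them, for MK25 in regular culture (triangles), VX745 in regular culture (squares) and MK25 in ischemic culture (open diamonds). The cholesterol list has the highest median in regular culture (1.35) and the hypoxia list the next (0.71). With MK25 in ischemic culture the first of these lies at 0.91 and the hypoxia list at -0.09.

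Called genes had a higher median GC content than all genes, without a test of that difference. The median GC content of the main transcript was 48.2% over all genes, 50.5% over the genes raised and 55.7% over those lowered, with a value for 96.2% of the raised and 95.3% of the lowered genes. In the tenth of the genes with the highest GC content the median MK25 minus DMSO difference was -0.12, and MK25 replicate 2 lay lowest there, at -0.11 from the mean of the 4 libraries, beside -0.01 in MK25 replicate 1 and 0.03 and 0.08 in the DMSO libraries. With the trend on GC content removed 272 genes were raised and 82 lowered, of which 252 and 65 were among those called in the values as deposited. The part of base composition in the single falls was otherwise not tested. Among the genes named for the largest falls, H2AX, ZNF503, FAM222A, SCARF2, ZNF579 and TRAPPC12 had a GC content of 61.9 to 71.1%.

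VX745 in the same culture, given against the same DMSO libraries, raised 9 genes (0.0642%) and lowered 5 (0.0357%). The 9 include PPFIA4, at 1.99 and 2.19 with VX745, and MAP2K6, and the 5 include CXCL8, IL1A and GDF15. With the p left unadjusted and the same fold, limma gave 134 and 106. The direct contrast of MK25 with VX745, in which the DMSO libraries do not enter, raised 173 genes (1.23%) and lowered 32 (0.228%). The number lowered fell to 20 without VX745 replicate 1 and 16 without VX745 replicate 2. The 2 inhibitors have different targets, and no dose stands in the labels, so the contrast compares the cultures as they were treated.

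Sterol and hypoxia genes led this contrast. In the cholesterol list 20 of 23 members were higher with MK25 than with VX745, in the hypoxia list 20 of 33 and in the fatty acid list 6 of 12. The 4 largest differences upwards were INSIG1 (3.65, SE 0.07, adjusted p = 1.28e-15), HMGCS1 (2.74), MSMO1 (2.63) and PPFIA4 (2.43). The 4 largest downwards were ABCA1 (-1.50, SE 0.08, adjusted p = 9.42e-10), MYLIP (-0.89), TMEM171 (-0.81) and SPOCD1 (-0.71). SPOCD1 stood at 3.62 and 3.65 with DMSO, at 4.01 and 4.17 with VX745 and at 3.39 and 3.36 with MK25, so that it lay above DMSO with one inhibitor and below it with the other, and neither difference from DMSO passed the test (adjusted p = 0.0503 and 0.0906). Of the 18 inflammatory genes 6 were higher with MK25 than with VX745, among them CXCL8, which stood at 5.61 and 5.54 with VX745 and so below DMSO with one inhibitor and above it with the other.

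In ischemic culture MK25 was compared with DMSO in 4 other libraries, and there it raised 985 genes (7.02%) and lowered 371 (2.65%). Of the 264 genes raised in regular culture 105 were raised there too, which is 39.8% of the 264 and 10.7% of the 985, and 4 were lowered there. Of the 85 genes lowered 15 were lowered there too (17.6% of the 85 and 4.04% of the 371). The effect of MK25 itself differed between the cultures, by the interaction in the same fit, for 1468 genes with a higher difference in ischemic culture (10.5%) and 1956 with a lower one (13.9%). Among the 264 raised genes it was lower in ischemic culture for 125 and higher for 14. Among the 85 lowered genes it was higher there for 34 and lower for 1. Both sets were picked by their difference in regular culture, which the interaction subtracts. The selection alone therefore favors these directions, and the splits do not show that the effect differs.

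Sterol genes were raised in both cultures, most of them by less in ischemic culture. In the cholesterol list 15 of 23 genes were raised there, the median difference was 0.91, and 17 had a lower effect than in regular culture by the interaction. INSIG1 stood at 6.45 and 6.45 with DMSO and at 8.21 and 8.28 with MK25 in ischemic culture, a rise of 1.79 (interaction -1.77, SE 0.10, adjusted p = 9.05e-09). SREBF2 rose by 1.40 there (interaction 0.09, adjusted p = 0.454) and STARD4 by 1.68 (interaction 0.33, adjusted p = 0.0884). ABCA1 fell by 0.99 (interaction 0.43, adjusted p = 0.015) and ABCG1 by 0.67 in ischemic culture. MYLIP was not called there (difference -0.21, adjusted p = 0.218), with an interaction of 0.61 (adjusted p = 0.0262). SCD rose by 1.79 and FADS2 by 1.80 there, with interactions of -0.14 (adjusted p = 0.381) and 0.01 (adjusted p = 0.945).

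Hypoxia genes were mostly not called in ischemic culture. In ischemic culture 3 of 33 were raised, the median was -0.09, and 30 of 33 had a lower effect than in regular culture. BNIP3 stood at 9.38 and 9.39 with DMSO and at 9.20 and 9.21 with MK25 there (difference -0.18, adjusted p = 0.0553), so that the DMSO libraries of ischemic culture already lay above the MK25 libraries of regular culture. SLC2A3 likewise stood at 8.26 and 8.27 with DMSO and at 8.12 and 8.17 with MK25, and PDK1 at 7.77 and 7.74 and at 7.51 and 7.68. The interaction was -2.08 (SE 0.10, adjusted p = 1.07e-09) for BNIP3, -2.06 for SLC2A3 and -2.01 for PDK1. The 3 raised there were ALDOC, by 0.87, and HILPDA and EGLN3, by 0.68 and 0.95, which were not called in regular culture.

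ATF4 and CHOP targets also had a lower effect in ischemic culture, in 30 of 34 genes. Their median difference was -0.37 there, with 1 raised and 6 lowered. SESN2 differed by 0.20 in regular culture (adjusted p = 0.0979) and fell by 1.57 in ischemic culture, and CTH rose by 0.66 in the first and fell by 0.77 in the second. CXCL8 likewise rose by 0.63 in regular culture and fell by 1.23 in ischemic culture (interaction -1.86, SE 0.12, adjusted p = 1.07e-08).

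**Figure D5:**
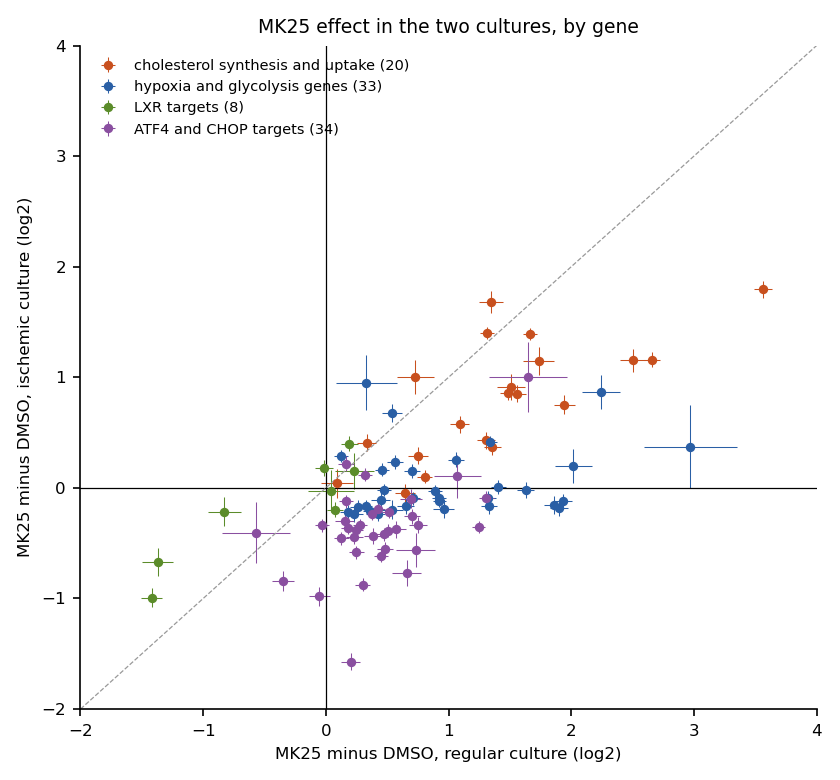
Each point is a gene of 1 of 4 lists, without the genes that are not reported here, with its MK25 minus DMSO difference in regular culture on the x axis and in ischemic culture on the y axis (log2, bars 1 SE), and the dashed line marks equal differences. Cholesterol genes lie to the upper right, most of them below the dashed line, hypoxia genes along the horizontal zero line, and most ATF4 and CHOP targets below it.

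The untreated libraries of the first experiment, which share no sample with these comparisons, show how the same genes stand in ischemic against regular culture. There ischemia raised 1529 of 13559 genes (11.3%) and lowered 1234 (9.1%) at 2-fold or more, and 11.1% and 9.07% of the 13475 genes found in both tables. Of the 264 genes that MK25 raised in regular culture 258 were in that table, and 146 of them (56.6%) were raised by ischemia and 7 lowered, with a median difference of 1.32. All 19 hypoxia genes raised by MK25 were raised by ischemia, with a median of 4.32. Ischemia raised 30 of the 33 genes of the whole hypoxia list (median 3.64), so list membership alone makes such a count likely. Of the 21 cholesterol genes raised by MK25 ischemia raised 1, INSIG1 by 2.90, and lowered 3, with a median of -0.32. The other raised genes, in neither list, numbered 218 in that table, and ischemia raised 126 of them (57.8%). PPFIA4 was 5.68 higher in untreated ischemic culture, CCNG2 4.44, BHLHE40 5.32 and DDIT4 4.64. Of the genes that MK25 lowered 77 were in the table, of which 29 (37.7%) were lowered and 9 (11.7%) raised by ischemia.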

How the data were processed

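The mRNA of LN229 cells was sequenced from unstranded libraries, so that a gene and its antisense partner cannot be told apart. Per the labels, HISAT2 and edgeR were used by the authors, with GRCh38, and the deposited tables hold log2 normalized CPM per gene, 1 table for each experiment. The offset that the normalization adds before the log lay between 1.49 and 2.23 reads in the 4 libraries, and all values up to 1000 reads came back as whole reads within 0.1. The reads carry no molecular identifiers, so that PCR copies count as reads, and the depth speaks for counting error only.

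Gene identifiers were given symbols from RefSeq (99.3% of 14024). limma 3.58.1 in R 4.3.3 was fitted to the values as deposited, with a variance trend, 1 mean per group and all 12 libraries of the inhibitor experiment, and p-values were adjusted across the whole table (Benjamini-Hochberg). The first experiment was fitted alone, since the tables were normalized separately. A count model was not the main test because the values are not counts, and voom on the recovered reads was run as an alternative. The fit was tested on simulated data. Replicates differed by more than sampling noise (chi-square per gene 8.22 for DMSO and 6.98 for MK25).

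Genes named are the 12 largest rises and falls among called genes with a mean level of at least 3, the 4 largest each way in the other contrasts, and members of 40 gene lists. Members and lists were chosen with earlier results of these data known. Alternatives were a level filter, 2 other scalings, no variance trend, log2(CPM + 1), only the groups compared, a replicate block and leaving out each library, and, chosen after seeing the data, voom and removal of the trend on transcript GC content. Ischemic culture with VX745 entered the fit only. Some genes are not reported here by name, but they stay in the fits and in the counts.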

Additional observations from a re-analysis of the deposited data

Results flagged for a closer look

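The effect of MK25 differed between the cultures by the interaction in the limma fit for 1468 genes that were higher and 1956 that were lower in ischemic culture. Within the lists a lower effect in ischemic culture was found for 17 of 23 cholesterol genes, 30 of 33 hypoxia genes and 30 of 34 ATF4 and CHOP targets. It was found as well for 68 of 75 ribosomal protein genes, 13 of 23 ER chaperone genes and 18 of 42 oxidative phosphorylation genes. Over all genes 13.9% had a lower effect there and 10.5% a higher one, at any fold change. The ribosomal protein genes had a median difference of 0.19 in regular culture and of -0.37 in ischemic culture, where none of them was called. The differences of the effects that were largest upwards, among called genes with a mean level of at least 3, were those of POU3F2 (1.53, SE 0.17, adjusted p = 1.04e-05), EEPD1 (1.46, SE 0.17), PRAG1 (1.46, SE 0.16) and SRGAP3 (1.40, SE 0.15). The largest downwards were those of RN7SK (-2.83, SE 0.88, adjusted p = 0.0253), CA9 (-2.59, SE 0.54), PPFIA4 (-2.33, SE 0.12) and BNIP3 (-2.08, SE 0.10). RN7SK rests on MK25 replicate 2 of regular culture, as its values in the report show. PPFIA4 stood at 6.78 and 6.65 with DMSO in ischemic culture, above its MK25 libraries of regular culture, and rose by 0.69 there.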

How the results depend on the processing

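Counts moved with the call rule. Without the fold requirement MK25 against DMSO gave 981 genes raised and 731 lowered, at 2-fold or more 95 and 21, and with the p unadjusted 177 were lowered. MK25 against VX745 gave 556 and 200, 80 and 6, and, unadjusted, 265 and 94. The interaction gave 183 higher and 135 lower at 2-fold or more, and 832 and 595 at 1.5-fold with the p unadjusted. Untreated ischemia gave 2886 and 2734 at 1.5-fold. On log2(CPM + 1), 56 genes were lowered against DMSO and 17 against VX745, and voom lowered 21 against VX745.

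Leaving out 1 library gave 54 to 174 genes lowered against DMSO, the extremes being without DMSO replicate 2 and replicate 1, and 16 to 35 lowered against VX745. List medians then ranged from 0.400 to 0.637 for fatty acid genes, from -0.081 to 0.056 for LXR targets, from 0.357 to 0.399 for ATF4 and CHOP targets and from 0.733 to 0.758 for hypoxia genes. Quantile normalization gave medians of 1.41 for cholesterol, 0.406 for ATF4 and CHOP and 0.901 for hypoxia genes, and log2(CPM + 1) gave 0.682 for hypoxia genes. The cause was not tested. Of the 35 other lists, 407 of 455 medians stayed within 1 SD.

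Of 312 values of the 24 genes named for size, 297 kept their direction and call, and 15, in 3 genes, among them NME2 and RN7SK, kept their direction and lost the call. Of 1415 values of the leading lists' 109 genes, 39 in 13 genes lost significance, 11 gained it and 0 turned direction.

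Replicate numbers did not pair the samples: deviations of same-numbered DMSO and MK25 libraries correlated at 0.035. With the replicate block 266 genes were raised and 87 lowered, and with 2 libraries a group the lone one left by an omission is assumed to vary like the other groups. Depth limits genes with few reads, such as NUPR1 and CA9 in the DMSO libraries.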
